A study of Mus musculus with 9 samples.

Results

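The messenger RNAs of 10 mouse genes that detect foreign or misplaced nucleic acid, pass that signal on or are its product were followed in cultured tumour cells with lowered Eya3. The genes are Ddx58 (also called RIG-I), Ifih1 (MDA5), Dhx58 (LGP2), Zbp1, Eif2ak2 (PKR), Adar, Mavs, Tmem173 (STING), Tbk1 and Ifnb1 (interferon beta). They were chosen by symbol for their role, with earlier results of these data known, and they are 10 of the 55418 gene symbols in the count table. The cells were 66cl4, a murine line labelled as triple negative breast cancer, held in puromycin once a short hairpin RNA vector had been introduced. The SCR group (treatment shScramble) carried a scrambled hairpin and served as the control, and the groups shEya3_KD1 and shEya3_KD2 each carried a different hairpin against Eya3. All 3 groups therefore carry a hairpin vector and the drug selection, and no culture without a hairpin was analysed here. Each group had 3 libraries labelled as biological replicates. Whether a hairpin line was a pool or 1 clone, and what set the replicates apart, is not given in the sources used here, so p-values measure the spread between these libraries, which may be technical.

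RIG-I and MDA5 are cytosolic helicases that bind double-stranded RNA, RIG-I preferring short ends with a triphosphate and MDA5 long duplexes. LGP2 is another helicase of that family, without the signalling domain. Both signalling helicases act through MAVS, an adaptor on mitochondria, while STING on the endoplasmic reticulum answers to a cyclic dinucleotide made by the DNA sensor cGAS. Either adaptor recruits the kinase TBK1, which activates the transcription factor IRF3 and so the gene of interferon beta, and secreted interferon then raises the genes of several sensors in turn. A short hairpin RNA is itself double-stranded and is cut by the cell's small RNA machinery, which is why these genes are of interest in a hairpin experiment.

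Library totals lay between 27758862 and 52691960 counts. The targeted gene, Eya3, which encodes a phosphatase and transcriptional coactivator, was at 68.1, 79.0 and 71.7 CPM (counts divided by the library total after TMM scaling) in SCR, at 24.9, 21.5 and 22.9 in shEya3_KD1, and at 38.7, 39.8 and 34.1 in shEya3_KD2. It was thus lower with both hairpins, and lower with shEya3_KD1 than with shEya3_KD2. The epithelial keratin gene Krt8 was at 678.9, 1314.9 and 792.5 CPM in SCR, shEya3_KD1 and shEya3_KD2, whereas Epcam had 0 counts in all libraries and Cdh1 between 5 and 22 counts per group. Krt14 was at 1.32, 0.561 and 11.8 CPM, Krt18 at 0.0277, 0.955 and 2.62 and Cldn4 at 0.297, 0.0546 and 0.15 in the same order. From the same marker list, Vim was at 2098.6, 3185.8 and 2489.0 CPM, Krt19 at 0.0212, 0.025 and 0.443 and Krt5 at 0.0211, 0.506 and 0.0332. Pgr had 0 counts, while Esr1 was measured at 7.12 to 16.0 CPM and Erbb2 at 53.6 to 67.1 CPM as group means. Plasmacytoid dendritic cells, known for making interferon, were represented by 8 markers of theirs and of other dendritic cells. Their summed level ran from 173.2 to 181.2 CPM in SCR, from 109.4 to 116.9 in shEya3_KD1 and from 271.8 to 368.5 in shEya3_KD2, nearly all of it from Bst2 and Tcf4. Of the defining ones, Ccr9 was at 0, Siglech had 2 counts and Flt3 had 6 counts over the 9 libraries. Of 12 macrophage markers 4 passed the filter on low counts, C1qa and C1qc were at 0 and Adgre1 had 1 count. The summed level of the 12 was 75.6 to 78.6 CPM in SCR, 34.5 to 39.2 in shEya3_KD1 and 32.5 to 39.3 in shEya3_KD2. Nearly all of it came from Lyz2 (38.6, 25.1 and 11.1 CPM in the same order), Cd14 (27.7, 7.29 and 11.4) and Cd68 (9.64, 3.54 and 12.1).

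In SCR cells the genes of the pathway lay at unequal levels, compared here per exon length as TPM, which scales the length-corrected counts of each library to the same total. Tbk1 was highest at 52.6 ± 2.47 TPM (SD, n = 3), followed by Adar at 38.8 ± 2.99, Eif2ak2 at 36.5 ± 2.66 and Ddx58 at 34.7 ± 3.80. Adar, Eif2ak2, Ddx58 and Tmem173 (31.7 ± 0.942) formed a run in which each overlapped its neighbour between libraries. Mavs at 22.1 ± 0.612, Dhx58 at 13.7 ± 1.01, Ifih1 at 9.86 ± 0.285 and Zbp1 at 4.0 ± 0.247 followed without overlap, and Ifnb1 was last at 0.192 ± 0.192 TPM.

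The order changed with the hairpin. In shEya3_KD1, Tbk1 at 39.3 ± 1.75 TPM, Adar, Tmem173, Eif2ak2 and Mavs formed a run in which each overlapped the next. There Ddx58 (12.7 ± 1.12 TPM) came below Mavs (23.8 ± 2.83) with no overlap, and Dhx58 (3.89 ± 0.628) came below Ifih1 (6.09 ± 0.195). In shEya3_KD2, Eif2ak2 (93.5 ± 29.0 TPM), Ddx58 (88.9 ± 28.1) and Adar (79.0 ± 17.1) stood above Tbk1 (53.5 ± 4.65), although the first 3 could not be ordered among themselves. Below Tbk1 came Dhx58 (52.3 ± 15.4), Tmem173 (41.0 ± 2.59), Ifih1 (31.6 ± 9.80), Mavs (24.1 ± 1.61) and Zbp1 (24.0 ± 11.3), each overlapping its neighbour, and Ifnb1 was last at 1.52 ± 0.288 TPM. The level of the sensor RIG-I relative to its adaptor, Ddx58 over Mavs per exon length, was 1.57 ± 0.132 in SCR, 0.535 ± 0.0262 in shEya3_KD1 and 3.64 ± 0.905 in shEya3_KD2. These ratios did not overlap between the groups. With the longest transcript as the length they were 2.61 ± 0.22, 0.89 ± 0.0435 and 6.06 ± 1.5, over 1.5 times higher in each group. The levels in SCR were then 48.7 TPM for Ddx58 and 18.6 for Mavs, which puts Ddx58 above Adar (41.1) and below Tbk1 (52.4), so the place of Ddx58 in the order depends on the length used.

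**Figure D1:**
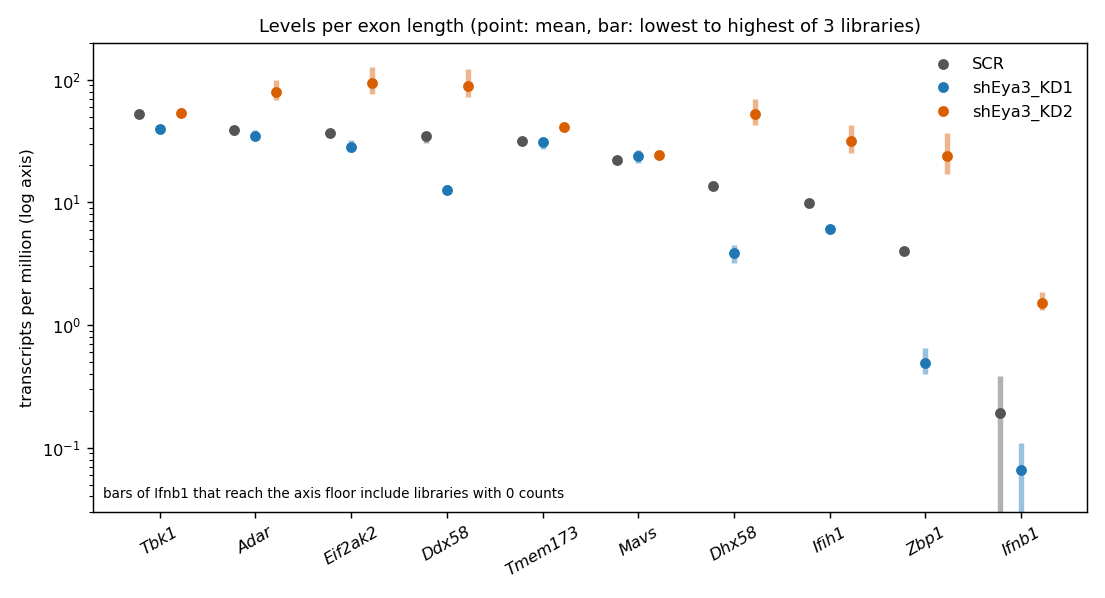
Levels per exon length (TPM, log axis) of the 10 genes in the order they have in SCR, with a point for the mean and a bar from the lowest to the highest of 3 libraries per group. Tbk1, Mavs and Tmem173 lie close together in the 3 groups, while Ddx58, Dhx58, Ifih1 and Zbp1 spread below SCR in shEya3_KD1 and above it in shEya3_KD2.

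Promoter sequences were searched because several sensors are known as interferon-induced and, as their values show, moved together. RefSeq promoters on GRCm38.p6, from 250 bases before to 50 bases after the start, were matched by symbol for 7 of the 10 genes and not for Dhx58, Zbp1 and Tmem173. The core of the interferon-stimulated response element, to which the interferon-activated complex binds, was searched as GAAANNGAAA on both strands. It was present in Ddx58, Ifih1 and Eif2ak2, 3 of 7, and in 3.98% of the 26994 genes with a promoter in the table. A longer form with a further base, GAAANNGAAAC, was present in the same number of the 7 and in 0.937% of all. The matched stretches of these 3 genes follow, with the element in capitals. In Ddx58 it begins at base 3 after the start and reads on the opposite strand, and in Ifih1 and Eif2ak2 it begins at bases 33 and 19.
Ddx58, chr4:40239796-40239925, minus strand: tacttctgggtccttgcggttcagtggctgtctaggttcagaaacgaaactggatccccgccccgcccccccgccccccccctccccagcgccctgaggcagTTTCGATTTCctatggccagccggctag
Ifih1, chr2:62646209-62646238, minus strand: ctggagaagagaatcGAAACAGAAAccgat
Eif2ak2, chr17:78882543-78882672, minus strand: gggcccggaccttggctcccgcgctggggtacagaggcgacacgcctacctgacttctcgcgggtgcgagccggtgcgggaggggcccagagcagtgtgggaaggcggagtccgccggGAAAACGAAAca

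No exact match to that core was found in the windows of Mavs, Tbk1, Ifnb1 or the 3 starts of Adar. Near matches were not counted, such as gaaagtgaac in Adar, aaaactgaaa in Ifnb1 and gaaacacaaa in Tbk1. The gamma-activated site TTCNNNGAA, which reads the same on both strands, was present in Eif2ak2 and Adar and in 9.55% of all genes. A kappa B match, the site of NF-kB, was present in Ifnb1 and in 9.55% of all genes. It begins 116 bases before the start and lies in the stretch known for assembling NF-kB and IRF proteins on this gene, shown here with the match in capitals. A match is a description of letters and does not show that a factor bound.
Ifnb1, chr4:88522795-88522944, minus strand: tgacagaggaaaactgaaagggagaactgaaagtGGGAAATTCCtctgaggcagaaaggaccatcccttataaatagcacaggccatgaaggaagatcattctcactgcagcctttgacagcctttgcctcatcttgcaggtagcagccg

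Ddx58, the gene of RIG-I (chr4:40203773-40239828 on GRCm38, minus strand), was at 72.3, 89.7 and 85.4 CPM in SCR. It was at 33.4, 29.9 and 29.5 CPM in shEya3_KD1 and at 170.5, 272.5 and 174.6 CPM in shEya3_KD2. All shEya3_KD1 libraries lay below, and all shEya3_KD2 libraries above, the SCR range. Against SCR the log2 fold change was -1.41 ± 0.17 (SE; edgeR quasi-likelihood test, Benjamini-Hochberg adjusted p = 6.5e-05) in shEya3_KD1 and 1.32 ± 0.17 (edgeR adjusted p = 0.000137) in shEya3_KD2. Its response element lies just after the start, as printed. Between the hairpins the log2 fold change was 2.73 ± 0.18 (edgeR adjusted p = 6.49e-07).

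Ifih1, the gene of MDA5 (chr2:62595798-62646255, minus strand), was at 27.4, 26.6 and 27.5 CPM in SCR, at 16.7, 17.9 and 17.2 in shEya3_KD1, and at 73.1, 111.6 and 69.8 in shEya3_KD2. The groups again did not overlap, and the SCR libraries were within 1.03-fold of each other. The log2 fold change was -0.65 ± 0.16 in shEya3_KD1 against SCR (edgeR adjusted p = 0.00482), 1.64 ± 0.15 in shEya3_KD2 (9.6e-06), and 2.29 ± 0.16 when the hairpins were compared (5.24e-07). The ratio of Ddx58 to Ifih1 per exon length was 3.52 ± 0.428 in SCR, 2.08 ± 0.206 in shEya3_KD1 and 2.81 ± 0.0984 in shEya3_KD2, and none of the 3 ranges overlapped.

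Dhx58, the gene of LGP2 (chr11:100694884-100704271, minus strand), was at 14.5, 14.6 and 16.1 CPM in SCR, at 4.95, 4.54 and 3.72 in shEya3_KD1, and at 46.8, 73.1 and 49.0 in shEya3_KD2. Of the 3 helicase genes it had the widest span between hairpins. Its log2 fold change was -1.77 ± 0.18 in shEya3_KD1 against SCR (edgeR adjusted p = 1.06e-05), 1.90 ± 0.16 in shEya3_KD2 (4.04e-06), and 3.66 ± 0.18 when the hairpins were compared (2.91e-08). An antisense transcript, Dhx58os, shares 141 bases of exon with it and had 52 counts in all against 9117 for Dhx58. Whether the counting used strand is not given in the sources used here.

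Zbp1 (chr2:173206612-173218923, minus strand) encodes a sensor of left-handed Z-form RNA and DNA that can trigger necroptosis, and it is itself an interferon-induced gene. It was at 4.43, 5.03 and 4.81 CPM in SCR, at 0.475, 0.796 and 0.519 in shEya3_KD1, and at 20.0, 41.6 and 21.8 in shEya3_KD2. In shEya3_KD1 this was 71 counts over 3 libraries, against 680 in SCR and 3072 in shEya3_KD2. The log2 fold change of -2.97 ± 0.42 in shEya3_KD1 (edgeR adjusted p = 0.000279) was the lowest of the 10 genes. In shEya3_KD2 it was 2.53 ± 0.28 (edgeR adjusted p = 7.31e-05), and between the hairpins 5.50 ± 0.38 (1.97e-06), a 45.3-fold difference.

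Eif2ak2 encodes PKR, a kinase that double-stranded RNA activates and that halts translation by phosphorylating eIF2 alpha (chr17:78852564-78882573, minus strand). It was at 60.7, 60.8 and 67.3 CPM in SCR, at 56.3, 45.8 and 47.3 in shEya3_KD1, and at 130.4, 206.7 and 133.9 in shEya3_KD2. It rose in shEya3_KD2, by 1.32 ± 0.16 on the log2 scale against SCR (edgeR adjusted p = 0.000107) and by 1.65 ± 0.17 against shEya3_KD1 (1.65e-05). In shEya3_KD1 its libraries all lay below those of SCR, yet the log2 fold change of -0.34 ± 0.16 (95% interval -0.70 to 0.03) missed the threshold (edgeR adjusted p = 0.115). The call depended on which libraries shared the fit, since the adjusted p was 0.000909 without shEya3_KD2 replicate 2 and 0.00167 when only SCR and shEya3_KD1 were fitted, with log2 fold changes of -0.34 and -0.33. With no filter on low counts it was 0.00209.

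Adar encodes the enzyme that edits adenosine to inosine in double-stranded RNA and so keeps the cell's own duplexes from MDA5 and PKR (chr3:89715022-89753446, plus strand). It was at 97.8, 108.7 and 112.2 CPM in SCR, at 107.0, 91.5 and 93.3 in shEya3_KD1, and at 189.4, 255.2 and 188.7 in shEya3_KD2. The first 2 groups overlapped, with a log2 fold change of -0.13 ± 0.11 (95% interval -0.37 to 0.12, edgeR adjusted p = 0.37). It rose in shEya3_KD2 by 0.99 ± 0.11 against SCR (edgeR adjusted p = 1.42e-05) and by 1.12 ± 0.11 against shEya3_KD1 (3.11e-06). Chrnb2 on the opposite strand shares 1365 bases with the exons of Adar, but had 2356 counts in all libraries against 51171 for Adar. A gene total does not separate the short constitutive form of ADAR1 from the long interferon-induced form.

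**Figure D2:**
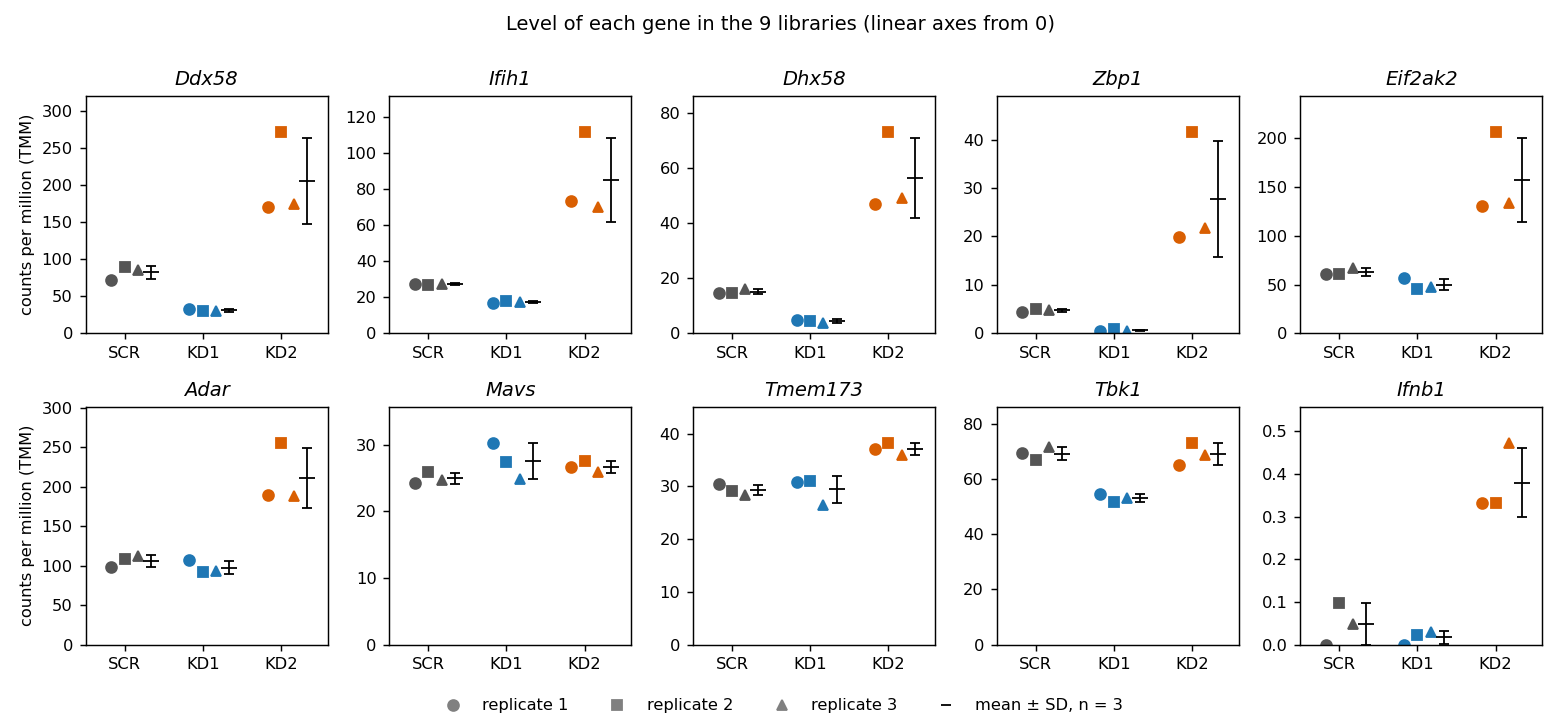
CPM of the 10 genes in each of the 9 libraries, with linear axes from 0, symbols for replicate numbers and the mean ± SD of 3 libraries beside them. Ddx58, Ifih1, Dhx58 and Zbp1 are lowest in shEya3_KD1 and highest in shEya3_KD2, and replicate 2 of shEya3_KD2 stands above the other 2 for these genes, Eif2ak2 and Adar.

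The adaptors and the kinase downstream had log2 fold changes between -0.38 and 0.38 in every comparison. Mavs (chr2:131234063-131248025, plus strand), the adaptor of RIG-I and MDA5, was at 24.2, 25.9 and 24.7 CPM in SCR, at 30.2, 27.5 and 24.8 in shEya3_KD1, and at 26.6, 27.6 and 25.8 in shEya3_KD2. The groups overlapped in every comparison. The log2 fold change was 0.14 ± 0.08 in shEya3_KD1 (95% interval -0.02 to 0.31, edgeR adjusted p = 0.142), 0.10 ± 0.08 in shEya3_KD2 (-0.07 to 0.26, 0.337) and -0.05 ± 0.08 between the hairpins (-0.21 to 0.12, 0.653). Without shEya3_KD1 replicate 3 the first of these was 0.20 and passed the threshold (edgeR adjusted p = 0.0444), so a small increase of Mavs in shEya3_KD1 rested on which libraries were used.

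Tmem173, the gene of STING (chr18:35733679-35740554, minus strand), was at 30.4, 29.2 and 28.4 CPM in SCR, at 30.9, 31.0 and 26.5 in shEya3_KD1, and at 37.1, 38.2 and 36.0 in shEya3_KD2. Its shEya3_KD2 libraries lay above all 6 others and within 1.06-fold of each other. The rise was 0.34 ± 0.07 on the log2 scale against SCR (edgeR adjusted p = 0.00155) and 0.33 ± 0.07 against shEya3_KD1 (0.00164), while shEya3_KD1 against SCR gave 0.01 ± 0.07 (95% interval -0.15 to 0.17, 0.937).

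Tbk1 (chr10:121546455-121586787, minus strand), on which both routes converge, was at 69.4, 67.0 and 71.7 CPM in SCR, at 54.8, 51.6 and 53.2 in shEya3_KD1, and at 65.1, 73.2 and 69.0 in shEya3_KD2. It was the one gene of the 10 that fell in shEya3_KD1 and had its SCR level in shEya3_KD2 within a narrow interval. The log2 fold change was -0.38 ± 0.07 in shEya3_KD1 against SCR (edgeR adjusted p = 0.000167), -0.01 ± 0.06 in shEya3_KD2 against SCR (95% interval -0.14 to 0.13, 0.948), and 0.38 ± 0.07 for shEya3_KD2 over shEya3_KD1 (0.000234).

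Ifnb1, the product gene without introns (chr4:88522025-88522774, minus strand), was near the limit of detection. Its counts were 0, 5 and 2 in SCR, 0, 1 and 1 in shEya3_KD1, and 17, 9 and 20 in shEya3_KD2. Every shEya3_KD2 library held more than any other library, at 0.332, 0.332 and 0.472 CPM. The pooled counts of 46 against 7 gave a depth-scaled ratio of 7.78 for shEya3_KD2 against SCR (95% counting interval 3.49 to 20.4), and 46 against 2 gave 22.4 against shEya3_KD1 (5.85 to 190.3). The ratio of shEya3_KD1 to SCR, 2 counts against 7, was 0.348 (0.0352 to 1.83) and not distinguishable from 1 at this depth. The fitted log2 fold changes were 2.89 ± 0.57 (edgeR adjusted p = 0.000774), 4.26 ± 0.74 (0.000219) and -1.38 ± 1.10 (0.321) in the same order. They moved with single SCR libraries: without SCR replicate 1 the first was 2.29, and without SCR replicate 2 the first was 3.95 and the last -0.32. The gene passed the filter on low counts only through shEya3_KD2, so its testing was tied to being high there. Bulk RNA cannot tell fewer cells that express a gene from less RNA per cell, and with so few counts this holds for Ifnb1 above all.

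Other interferon genes gave almost nothing. Of 20 further genes of type I, II and III interferons, 14 had 0 counts in all 9 libraries and 0 passed the filter. Ifna4, singled out after its values were seen, had 4 counts, all in shEya3_KD2, and Ifne had 3, 2 and 1 counts in SCR, shEya3_KD1 and shEya3_KD2. A total of 0 over a group allows up to 3 counts, which covers counting error only.

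**Figure D3:**
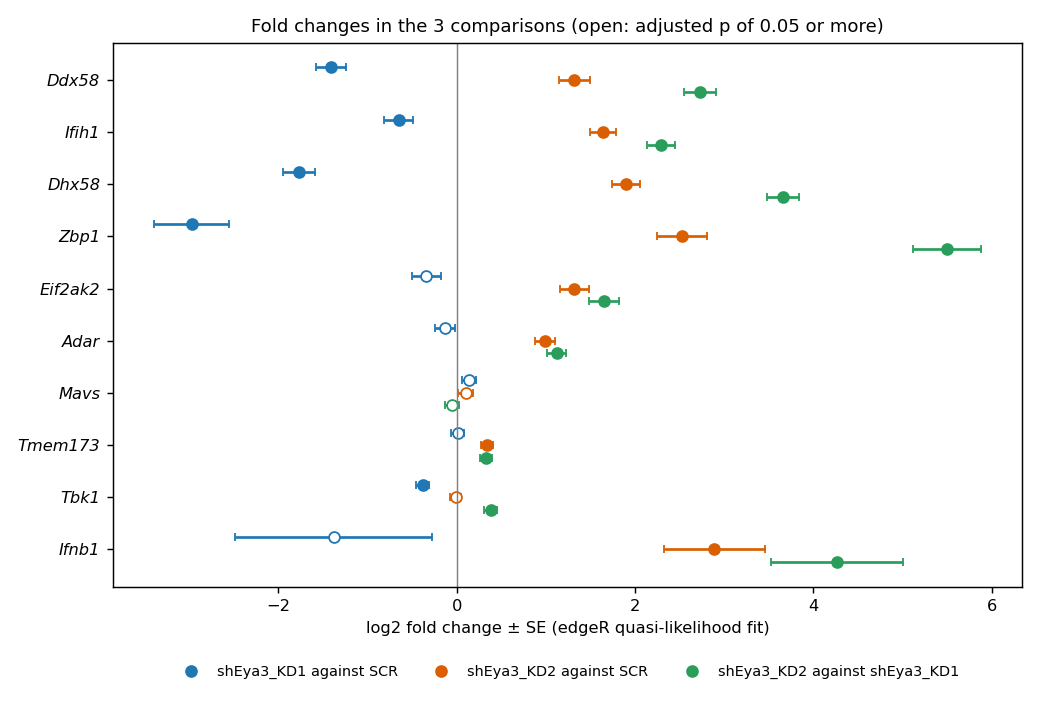
Log2 fold change ± SE from the edgeR quasi-likelihood fit for the 10 genes in the 3 comparisons, with open points where the adjusted p was 0.05 or more. Against SCR, Ddx58, Ifih1, Dhx58 and Zbp1 have filled points on both sides of 0, from -2.97 for Zbp1 in shEya3_KD1 to 2.53 for Zbp1 in shEya3_KD2. Between the hairpins their filled points reach 5.50 for Zbp1.

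Counted together, 5 of the 10 genes fell and 0 rose in shEya3_KD1 against SCR, where 26.2% of the 15914 genes tested fell and 24.1% rose. The 5 were Ddx58, Ifih1, Dhx58, Zbp1 and Tbk1, and the median log2 fold change of the 10 was -0.52, beside 0.01 over all genes. Without the sparse Ifnb1 the median of the other 9 was -0.38. In shEya3_KD2 against SCR 8 of 10 rose and 0 fell, where 23.0% of all genes rose and 22.3% fell, with a median of 1.32. Mavs and Tbk1 were the 2 that did not pass. The response element was matched exactly in Ddx58, Ifih1 and Eif2ak2, which rose in shEya3_KD2. Adar and Ifnb1, which also rose, held no exact match, and neither did Mavs and Tbk1. Dhx58, Zbp1 and Tmem173 rose as well, but no promoter was matched to them. Whether the element bears on these changes was not tested. Between the hairpins 9 of 10 were higher in shEya3_KD2 and 0 lower, beside 27% and 22.5% of all genes, with a median of 1.97 (1.65 without Ifnb1) and Mavs as the exception. The 8 and the 9 include Ifnb1, which was tested only through being high in shEya3_KD2. With a minimum of 5 CPM in 3 libraries, where it was not tested, 7 and 8 of the other 9 genes were called. The first 2 comparisons share the SCR libraries, and all 3 share a fit, so their counts are not independent. Between 22.3% and 27% of all genes passed in a given direction, so single calls are frequent in these data.

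The order of the groups was not that of Eya3. Eya3 was lowest in shEya3_KD1 and intermediate in shEya3_KD2, whereas Ddx58, Ifih1, Dhx58 and Zbp1 were lowest in shEya3_KD1, intermediate in SCR and highest in shEya3_KD2, with no overlap between any 2 groups. How many of all genes showed this order was not counted.

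The 3 shEya3_KD2 libraries differed among themselves in these genes. Replicate 2 of shEya3_KD2, the shallowest library of the series, was the highest of the 3 for 9 of the 10 genes. The median difference of the 9 genes other than Ifnb1 from the SCR mean, on the log2(CPM + 0.5) scale, was 1.05, 1.71 and 1.08 in shEya3_KD2 replicates 1, 2 and 3, against 0 or -0.01 for all genes. For Zbp1 it was 1.96, 3.00 and 2.08. Ifnb1 did not share this order, with 9 counts in replicate 2 at the same CPM as replicate 1. The coefficient of variation within shEya3_KD2 was 25.9% to 43.2% for Ddx58, Ifih1, Dhx58, Zbp1 and Eif2ak2 and 18.1% for Adar. It was 3.29% for Mavs, 2.98% for Tmem173 and 5.81% for Tbk1 in the same libraries. In SCR, Ddx58 had the widest spread of these 9 genes, at 11.0%.

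**Figure D4:**
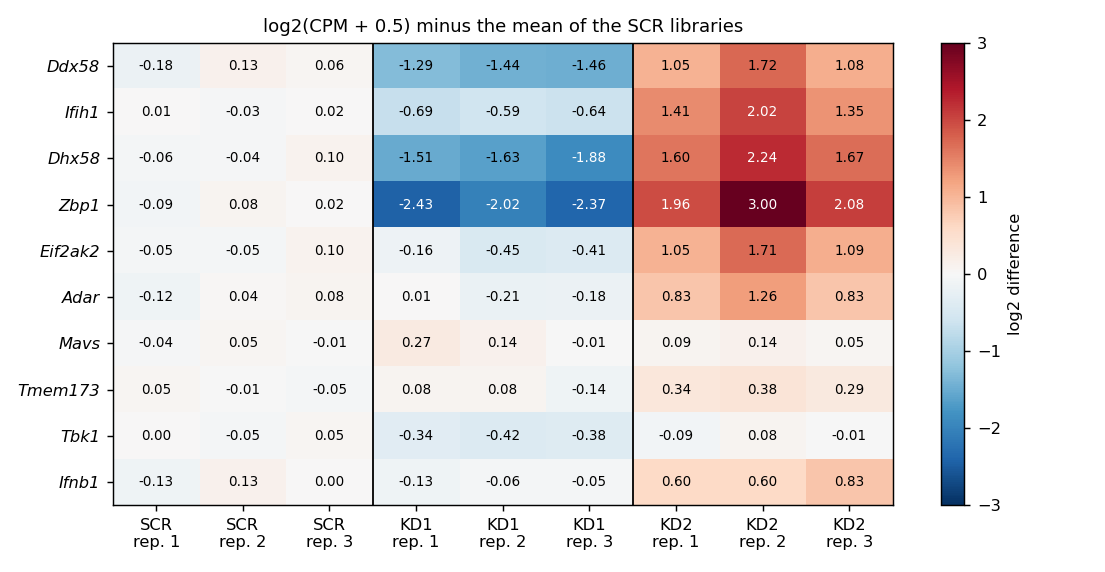
Difference of each of the 10 genes from the mean of the SCR libraries, as log2(CPM + 0.5), with 1 column per library and the value in each cell. The shEya3_KD2 columns reach 3.00 for Zbp1 in replicate 2, and the rows of Mavs and Tbk1 stay between -0.42 and 0.27.

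Leaving out shEya3_KD2 replicate 2 left the number of genes called at 8 against SCR and 9 between the hairpins, while the medians became 1.07 and 1.73. The log2 fold changes against SCR were then 1.07 for Ddx58 and 2.13 for Zbp1. The panel of 15 interferon readout genes, such as Mx1 and Isg15, had library medians of 1.85, 2.62 and 2.03 in the same 3 libraries and between -1.0 and -0.92 in shEya3_KD1. The part of depth or of any other property of that library in this order was not tested.

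Further genes of RNA sensing were taken as a list of 21 tested genes. In shEya3_KD1 10 fell and 2 rose (median log2 fold change -0.43), where 26.2% and 24.1% of all genes did. In shEya3_KD2 17 rose and 0 fell (0.62), beside 23.0% and 22.3% of all genes. Between the hairpins 17 were higher in shEya3_KD2 and 2 lower (1.93), beside 27% and 22.5% of all genes. The 4 genes of the list with the largest called change in any of the 3 comparisons were of the 2'-5'-oligoadenylate synthase family. Some members of that family, though not all, sense double-stranded RNA and so activate RNase L. In shEya3_KD2 against SCR the log2 fold change of Ddx60, a helicase singled out after its values were seen, was 2.6 (edgeR adjusted p = 1.33e-06), above those of these 4 genes. Oas3 was at 43.1 ± 7.25 CPM in SCR, 7.53 ± 0.806 in shEya3_KD1 and 158.7 ± 74.0 in shEya3_KD2. Oas2 was at 52.5 ± 10.1, 4.92 ± 0.611 and 103.0 ± 41.2 CPM in the same order, and Oasl2, a further gene of the family, at 51.6 ± 5.93, 23.0 ± 0.600 and 277.1 ± 99.1. Reads of this family, whose members are alike in sequence, may be split between genes such as Oas1b (4.52, 1.51 and 12.5 CPM). Trim25, the ubiquitin ligase of RIG-I, singled out after its values were seen, was at 126.8, 64.4 and 287.4 CPM.

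Among 15 tested genes of DNA sensing, 5 fell and 2 rose in shEya3_KD1 (median -0.14), where 26.2% and 24.1% of all genes did. In shEya3_KD2 11 of the 15 rose and 2 fell (0.59), beside 23.0% and 22.3% of all genes. Between the hairpins 13 were higher in shEya3_KD2 and 0 lower, beside 27% and 22.5% of all genes. Without SCR replicate 2 the number that rose in shEya3_KD1 was 0, and without SCR replicate 3, shEya3_KD1 replicate 2 or shEya3_KD1 replicate 3 it was 1. The number that fell there was 3 without SCR replicate 3, and the median in shEya3_KD2 was 0.37 without shEya3_KD2 replicate 2. With 1 library left out that median ran from 0.37 to 0.78. Aim2, a cytosolic DNA sensor that builds an inflammasome, went down with both hairpins, from 87.3 ± 2.92 CPM in SCR to 3.39 ± 0.230 in shEya3_KD1 and 22.1 ± 2.23 in shEya3_KD2. Its log2 fold changes were -4.69 ± 0.09 (edgeR adjusted p = 1.64e-14) and -1.98 ± 0.08 (1.23e-10). Of its relatives in the same gene cluster, Ifi207, Ifi205 and Ifi203 instead rose in shEya3_KD2 against SCR. Ifi207 fell in shEya3_KD1 as Aim2 did (log2 fold change -2.08, edgeR adjusted p = 7.61e-05). Ifi207 was at 2.66, 0.626 and 10.2 CPM and Ifi205 at 0.388, 0.311 and 3.70 CPM in SCR, shEya3_KD1 and shEya3_KD2. Ifi203 was at 28.5, 31.8 and 141.2 CPM, with no call in shEya3_KD1 (edgeR adjusted p = 0.535). Near-identical copies in this cluster can also share reads. Cgas, the sensor upstream of STING, singled out after its values were seen, was at 30.5, 25.6 and 35.9 CPM.

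Of 22 adaptors, kinases and transcription factors of the pathway, 11 fell and 2 rose in shEya3_KD1 (median -0.18). Of all genes 26.2% fell and 24.1% rose there. In shEya3_KD2 11 of the 22 rose and 1 fell (0.23), beside 23.0% and 22.3% of all genes. Irf7, an interferon-induced factor that amplifies interferon genes, was at 50.8 ± 2.14 CPM in SCR, 15.1 ± 1.5 in shEya3_KD1 and 190.1 ± 56.8 in shEya3_KD2. Traf3, a ubiquitin ligase between MAVS and TBK1, was at 61.4 ± 5.84, 37.4 ± 3.92 and 114.1 ± 11.2 CPM. Ikbkg, the gene of NEMO in the kinase complex that frees NF-kB, rose with both hairpins, from 34.9 ± 0.918 CPM to 57.8 ± 1.19 and 105.3 ± 4.49. Irf5, another interferon regulatory factor, was at 0.271, 0.514 and 1.35 CPM, and was higher in shEya3_KD2 than in SCR (edgeR adjusted p = 0.000419) and than in shEya3_KD1 (0.00809). Irf3, the factor TBK1 activates, singled out after its values were seen, was at 36.3, 30.7 and 33.0 CPM.

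Of 18 negative regulators 8 fell and 4 rose in shEya3_KD1 (median -0.03), where 26.2% and 24.1% of all genes did, and 5 rose and 4 fell in shEya3_KD2 (0.07), beside 23.0% and 22.3%. Without SCR replicate 2 or 3 the number that rose in shEya3_KD1 was 2. Usp18, which shuts off the interferon receptor, was at 19.9 ± 1.17 CPM in SCR, 8.38 ± 0.693 in shEya3_KD1 and 98.0 ± 24.3 in shEya3_KD2. Nlrc3, an inhibitor of STING signalling, was at 2.98, 1.75 and 10.5 CPM. Tnfaip3, the gene of the NF-kB brake A20, was lowered by either hairpin, from 46.1 ± 2.69 CPM to 17.6 ± 1.30 and 39.1 ± 0.763, and Dok3, a signalling adaptor, from 2.31 ± 0.590 to 1.03 ± 0.184 and 1.17 ± 0.203.

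The machinery that handles hairpin RNA was also listed. Of 14 tested genes 4 rose and 0 fell in shEya3_KD1 (median 0.08), 5 rose and 0 fell in shEya3_KD2 (0.19), and between the hairpins 1 was higher in shEya3_KD2 and 1 lower (0.01). Over all genes 24.1% and 23.0% rose in the first 2 comparisons. Dicer1, the RNase that cuts hairpins into small RNAs, rose with both, from 64.1 ± 3.30 CPM in SCR to 116.8 ± 9.30 in shEya3_KD1 and 98.6 ± 8.04 in shEya3_KD2. The log2 fold changes were 0.87 ± 0.08 (edgeR adjusted p = 2.59e-07) and 0.62 ± 0.08 (1.67e-05). Ago3, an Argonaute that holds small RNAs, rose from 26.2 ± 1.43 CPM to 38.0 ± 1.37 and 34.5 ± 6.54. Drosha, which trims precursor hairpins in the nucleus, rose from 97.3 ± 1.54 CPM to 112.6 ± 10.4 and 122.0 ± 8.64. Tnrc6b, an Argonaute partner, was at 92.9, 79.8 and 124.6 CPM. With 1 library left out, the number that rose in shEya3_KD2 ran from 3 to 7 and the median there from 0.12 to 0.23. The number was 3 without any 1 of SCR replicates 1 and 3, shEya3_KD1 replicates 2 and 3, and shEya3_KD2 replicates 1 and 2. The median was 0.12 without shEya3_KD2 replicate 2. Between the hairpins the counts were 2 higher and 0 lower without shEya3_KD1 replicate 1, 1 and 0 without shEya3_KD2 replicate 1, 1 and 2 without shEya3_KD2 replicate 2, and 3 and 0 without shEya3_KD2 replicate 3.

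Genes of eIF2 and of the stress response it governs, the pathway PKR acts on, formed a further list. Of 17 tested eIF2 kinases and stress genes 5 fell and 2 rose in shEya3_KD1 (median -0.08), where 26.2% and 24.1% of all genes did. In shEya3_KD2 6 rose and 5 fell (0.01), beside 23.0% and 22.3% of all genes. The number that rose in shEya3_KD1 was 0 without SCR replicate 2 or shEya3_KD1 replicate 2. The number that rose in shEya3_KD2 was 3 without SCR replicate 1, SCR replicate 2 or shEya3_KD2 replicate 1, and the number that fell was 3 without SCR replicate 1, SCR replicate 3 or shEya3_KD2 replicate 2. With 1 library left out, the number that rose ran from 0 to 3 in shEya3_KD1 and from 3 to 7 in shEya3_KD2. The median in shEya3_KD2 then ran from -0.08 to 0.08. Trib3, induced in amino acid and endoplasmic reticulum stress, was at 44.7 ± 5.62 CPM in SCR, 48.5 ± 4.05 in shEya3_KD1 and 96.6 ± 4.03 in shEya3_KD2. Ddit3, the gene of CHOP, was at 10.9 ± 0.427, 6.69 ± 0.689 and 13.0 ± 0.347 CPM. Ppp1r15a, which restores translation by removing the phosphate from eIF2 alpha, was at 70.4, 49.5 and 82.8 CPM, and Eif2s3x, of eIF2 itself, at 185.0, 125.6 and 160.6 CPM.

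Around Zbp1, 7 genes of Z nucleic acid sensing and necroptosis were tested. Of these, 2 fell and 0 rose in shEya3_KD1 (median -0.10), where 26.2% and 24.1% of all genes did. In shEya3_KD2 4 rose and 1 fell (0.19), beside 23.0% and 22.3% of all genes. Mlkl, which executes necroptosis, was at 177.2 ± 9.60 CPM in SCR, 106.2 ± 0.667 in shEya3_KD1 and 226.0 ± 2.64 in shEya3_KD2. Ripk3, the kinase through which ZBP1 activates MLKL, singled out after its values were seen, had 4, 5 and 0 counts in SCR, shEya3_KD1 and shEya3_KD2, so the high Zbp1 of shEya3_KD2 was measured beside a Ripk3 total that allows up to 3 counts. Ripk1 was at 45.5, 44.4 and 56.5 CPM and Cflar, an inhibitor of caspase 8, at 58.4, 64.1 and 85.3 CPM, both higher in shEya3_KD2 against either group. Adarb1, a second editing enzyme gene, went down from 24.2 ± 1.85 CPM to 17.4 ± 1.76 and 17.6 ± 1.95 with the hairpins, called in both, where Adar was called upward in shEya3_KD2 alone.

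Sets of readout genes were followed for the signal these sensors feed. All 15 interferon readout genes rose in shEya3_KD2 (median 2.29), where 23.0% of all genes did. In shEya3_KD1 13 fell and 0 rose (-1.01), beside 26.2% and 24.1% of all genes. Mx1, an antiviral GTPase gene, was at 0.890 ± 0.0883 CPM in SCR, 0.269 ± 0.0579 in shEya3_KD1 and 8.02 ± 2.92 in shEya3_KD2, and its relative Mx2 at 2.10 ± 0.327, 0.802 ± 0.110 and 21.4 ± 7.52. Cmpk2 was at 9.20, 2.38 and 51.7 CPM and Ifit3, of a family that binds viral RNA, at 3.17, 1.84 and 30.1 CPM. Of 9 tested targets of IRF3 and NF-kB, which share genes with the other set, 7 fell and 1 rose in shEya3_KD1 (median -1.39). In shEya3_KD2 5 of them rose and 4 fell (0.93), where 23.0% and 22.3% of all genes did. Ccl5 (18.1, 3.21 and 34.6 CPM) and Cxcl10 (12.9, 4.93 and 50.5 CPM), chemokines that interferon pathways induce, rose in shEya3_KD2. Ccl2 (113.1, 0.493 and 28.2 CPM) and Cxcl1 (210.6, 18.9 and 70.1 CPM), chemokines known as NF-kB targets, fell with both hairpins. Among 10 housekeeping genes 2 fell and 3 rose in shEya3_KD1, beside 26.2% and 24.1% of all genes. In shEya3_KD2 2 of them fell and 1 rose, beside 22.3% and 23.0% of all genes.

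Genes whose pattern was closest to that of a sensor were ranked among 10429 genes by the root mean square difference of centred log2(CPM + 0.5) over the 9 libraries. Closest to Ddx58 were Gbp7 (0.109), Trafd1 (0.116), Trim30a (0.16) and Tor3a (0.17). Gbp7, for example, was at 9.29, 3.55 and 26.0 CPM. Zbp1, with its wide span, had looser matches in Cmpk2 (0.26), Parp14 (0.266), Oas3 (0.281) and Rsad2 (0.399). Parp14 was at 33.9, 9.56 and 186.6 CPM and Rsad2 at 24.7, 8.02 and 127.8 CPM. The smaller pattern of Tmem173 was nearest to that of Vrk3 (0.039), Gnas (0.04), Ranbp9 (0.041) and Stk4 (0.042), and that of Mavs to Scaf8 (0.026), Picalm (0.034), Parva (0.035) and Kpna6 (0.037). Small distances are easily reached by genes that vary little, so the values are not comparable between a wide and a narrow pattern.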

How the data were processed

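Per the labels' protocols, RNA of cultured 66cl4 cells was extracted with an RNeasy kit and made into libraries with a NuGEN mRNA kit. The submitters' processing notes name FastQC, MultiQC, STAR and mm10. Which program counted the reads, with which gene models and with or without strand, is not given in the sources used here. Raw read counts per symbol were deposited by the authors and entered the tests unchanged. All 55418 symbols matched GENCODE M21 on GRCm38 (the same assembly as mm10), which gave coordinates and exon lengths, and 115 symbols stand for several genes.

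Sample titles gave the groups and replicate numbers. In R 4.3.3, edgeR 4.0.16 kept 15914 genes (filterByExpr) and fitted all 9 libraries (TMM factors, robust quasi-likelihood, group as the only term). A gene was called at a Benjamini-Hochberg adjusted p under 0.05 over all genes tested. Standard errors come from the fold change and its F statistic, and 95% intervals from the same fit. Ratios of sparse counts have exact binomial intervals, which cover counting error only. With 3 libraries against 3, an exact permutation test cannot go below 0.1. The fit was tested on simulated data with the same spread setting for all genes and with changes in shEya3_KD1 alone. That simulation did not copy the wider spread of sensor genes within shEya3_KD2.

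Alternatives were RLE factors, DESeq2 1.42.0, limma-voom (limma 3.58.1), a block for the replicate number, no filter, a minimum of 5 CPM in 3 libraries, a fit of the 2 compared groups alone, and each library left out. Fewer alternatives were run on the gene lists, and these were chosen after the data had been seen. The 10 genes, the 11 gene lists and the 7 marker lists were chosen with earlier results of these data known. Genes named from a list were the 4 with the largest called change, 1 CPM or more in either group, and groups whose libraries did not overlap, and for 4 sensors the 4 genes of nearest pattern. Genes named outside this rule are marked in the text, apart from cell type markers. Replicate libraries of a group were treated as separate samples.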

Additional observations from a re-analysis of the deposited data

Results flagged for a closer look

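The change of 4 sensor genes against SCR differed between the hairpins, with opposite called directions against the shared SCR libraries and a tested difference between shEya3_KD2 and shEya3_KD1. The log2 difference was 2.73 for Ddx58, 2.29 for Ifih1, 3.66 for Dhx58 and 5.50 for Zbp1, and all shEya3_KD2 libraries lay above all shEya3_KD1 libraries for each of the 4 genes.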

How the results depend on the processing

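Of 476 recomputed fold changes of single genes, 463 kept their direction and their side of the threshold, 0 calls were lost, and 4 passed that had not: Eif2ak2 in shEya3_KD1 under 3 alternatives and Mavs in shEya3_KD1 under 1. The other 9 changed sign while remaining uncalled. These were Tmem173 in shEya3_KD1 (-0.04 to 0.07 with 1 library left out, below 0 in 5 of these fits), Tbk1 in shEya3_KD2 (0.01 with no filter, and -0.05 to 0.03 with 1 library left out, above 0 without SCR replicate 3 or shEya3_KD2 replicate 1) and Mavs between the hairpins (-0.11 to 0.03 with 1 library left out, above 0 without shEya3_KD1 replicate 1). At 5 CPM in 3 libraries Ifnb1 was not tested, nor was it when only SCR and shEya3_KD1 were fitted. The median of the 10 genes in shEya3_KD1 ran from -0.53 to -0.40 with 1 library left out, the latter without SCR replicate 2, and rests on the sparse Ifnb1. The longer response element was in 0.937% of genes. With the longest transcript as the length, 13 of 30 levels per length moved by more than 1 SD.

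With the replicate number as a block, 5, 8 and 9 of the 10 genes were called in the 3 comparisons, as without it. Deviations of same-numbered libraries correlated between -0.209 and 0.357, and 3 of 9 libraries correlated best with their own number, so the numbers do not pair the samples. Depth limits Ifnb1 and Zbp1 in shEya3_KD1, which rest on 2 and 71 counts.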
